A study of Danio rerio with 18 samples.

Results

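The Jun, Jdp2, Batf and Atf3 factors were followed in whole zebrafish larvae across germ-free, conventionalized and mono-associated conditions and in *myd88* mutants. They were chosen by gene symbol, as every row of the count files named *jun*, *junba*, *junbb*, *jund*, *jdp2a*, *jdp2b*, *batf* or *atf3*. Each symbol matched 1 row, which gave 8 of the 31388 genes listed, and all 8 had enough reads to be among the 23367 genes tested.

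RNA sequencing was performed on 18 libraries in 6 groups of 3 biological replicates, each made from a pool of 15 whole larvae at 5 days post fertilization (DPF). Wildtype (WT) larvae were germ-free (GF), conventionalized (CONVD) from 3 DPF with water that had held conventionally reared WT larvae, or kept from 3 to 5 DPF in water with only *Exiguobacterium* ZWU0009 (Exi) or only *Chryseobacterium* ZOR0023 (Chrys). Larvae homozygous for the hu3568 allele of *myd88* (*myd88*-/-), the adaptor through which most Toll-like receptors signal, were GF or CONVD. Colonized groups had all been raised GF until colonization, larvae were not fed, and the mutants came from other parents than the WT larvae, so that effects of the allele and of the parents cannot be told apart. By the paper's estimates, the concentration of bacteria in the water also differed between treatments, and was highest for Chrys and lowest for CONVD. The bacteria carried per larva were estimated as about the same for Exi and Chrys, and as somewhat fewer for CONVD. Effects of the kind of bacteria and of their dose in the water thus cannot be told apart. The comparisons ask how transcripts respond to colonization, whether this response needs Myd88, and how single bacterial strains compare with a full community.

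Activator protein 1 (AP1) is a set of dimers of basic leucine zipper (bZIP) proteins that bind DNA. Jun proteins are part of most of these dimers and pair with each other, with Fos proteins or with Atf and Batf proteins, and in mammals the composition of the dimer sets whether a target gene is switched on or held down. In mammals, Jdp2 and Atf3 often act as repressors, Batf lacks a transactivation domain of its own and works with interferon regulatory factors in leukocytes, and Atf3 is known as a stress-induced brake on Toll-like receptor targets in macrophages.

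In WT larvae, 4 of the 8 transcripts fell upon conventionalization, where 1.04% of all genes tested were called lower. These were *jdp2b*, *batf*, *atf3* and *jund*, to 21.1%, 29.5%, 45.9% and 69.6% of their mean GF levels. The same 4 were called in larvae with Chrys alone, where 1.08% of all genes were called lower. With Exi alone 3 of them (*jdp2b*, *batf* and *atf3*) were called, with smaller changes, where 0.484% of all genes were called lower. In *myd88*-/- larvae none of the 8 was called changed upon conventionalization, in a comparison that called only 0.077% of all genes. Already in GF larvae 6 of the 8 were lower in mutants than in WT, where 15.1% of all genes were called lower. The rows of *batf* and *jdp2b* may hold the same reads, as described with their values, so the change cannot be assigned to either gene alone, and that of *batf* apart from *jdp2b* is uncertain. Levels are given as CPM (read counts scaled to a common library total, with totals corrected by the trimmed mean of M-values), and a gene is called changed at an adjusted p below 0.05 in edgeR's quasi-likelihood test together with a fold change of at least 1.3.

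**Figure D1:**
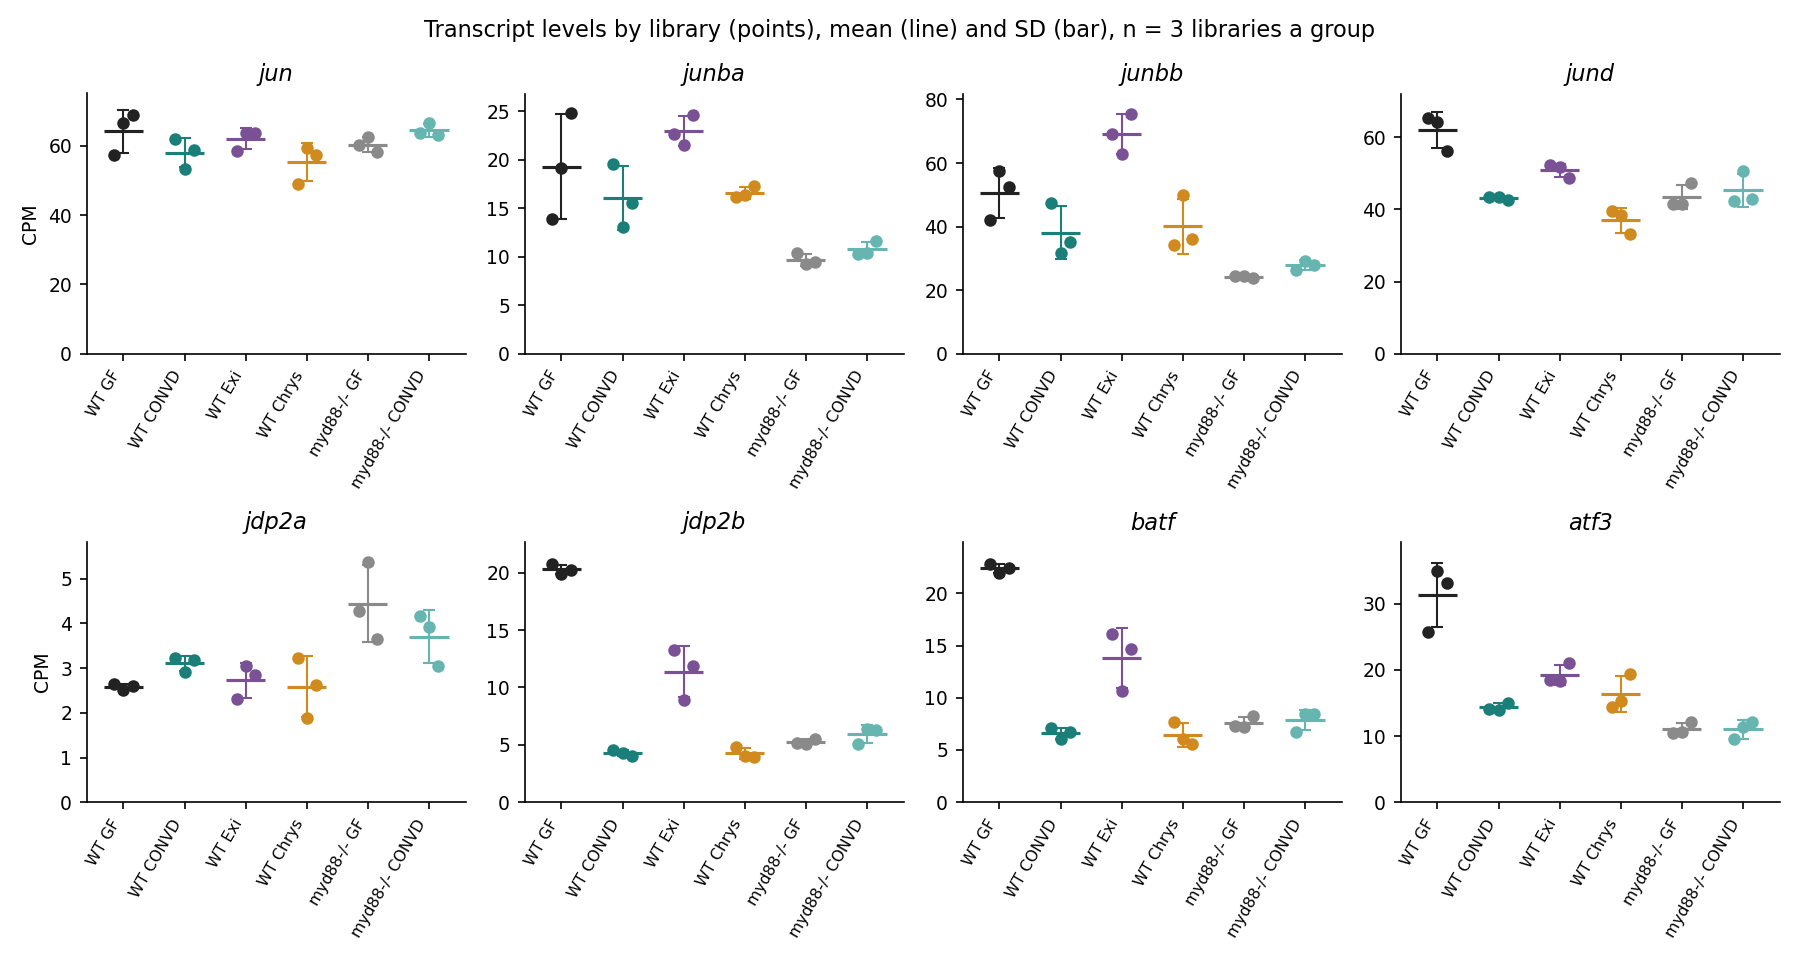
Levels of the 8 transcripts in CPM on a linear axis that starts at 0, with 1 point per library, a line at the mean and a bar for the standard deviation of the 3 libraries of each group. The GF WT points of *jdp2b*, *batf*, *atf3* and *jund* lie above those of all other groups, whereas *jun* differs little between groups.

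The member whose row moved most was *jdp2b* (ENSDARG00000020133), which encodes one of the Jun dimerization proteins. In GF WT larvae the libraries held 20.8, 19.9 and 20.2 CPM of *jdp2b*. In CONVD larvae they held 4.51, 4.30 and 4.05 CPM, and with Chrys 4.78, 4.02 and 3.95 CPM. With Exi they held 13.3, 8.93 and 11.9 CPM. No colonized WT library reached the lowest GF library, and the Exi libraries lay between GF and the other colonized groups without overlapping either. The log2 fold change against GF was -2.25 upon conventionalization (standard error, SE, 0.13, adjusted p = 5.0e-13), which was the lowest p of all 23367 genes tested. It was -2.27 with Chrys (SE 0.15, adjusted p = 8.1e-12) and -0.82 with Exi (SE 0.12, adjusted p = 7.6e-05). These comparisons share the 3 GF libraries as controls. When all libraries were thinned to the smallest total in a single random draw, the Exi change of *jdp2b* was -0.65. It no longer passed the test (edgeR adjusted p = 0.19), while both other *jdp2b* calls held. The *batf* row kept its Exi call in the same fit.

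In *myd88*-/- larvae, *jdp2b* stood at 5.17, 5.05 and 5.53 CPM in GF and at 5.05, 6.42 and 6.32 CPM in CONVD libraries. Both mutant groups thus lay above the CONVD and Chrys WT libraries, below the Exi libraries, and overlapped each other. Ordered by their means, the groups ran from GF WT (20.3 ± 0.426 CPM, SD, n = 3) through Exi (11.4 ± 2.21), CONVD mutants (5.93 ± 0.764), GF mutants (5.25 ± 0.249) and CONVD WT (4.29 ± 0.231) to Chrys (4.25 ± 0.46). The neighbours in this order that overlapped were the pair of mutant groups and the pair of CONVD and Chrys WT groups.

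The row of *batf* (ENSDARG00000011818) followed that of *jdp2b* closely. It held 22.8, 21.9 and 22.4 CPM in GF, 7.06, 6.05 and 6.69 CPM in CONVD, 16.1, 10.6 and 14.7 CPM in Exi and 7.71, 6.07 and 5.56 CPM in Chrys libraries. In the mutants it held 7.25, 7.25 and 8.29 CPM when GF and 6.71, 8.41 and 8.46 CPM when CONVD. The log2 fold change against GF was -1.78 in CONVD (SE 0.13, edgeR adjusted p = 4.3e-11), -0.68 in Exi (SE 0.12, adjusted p = 0.0016) and -1.81 in Chrys larvae (SE 0.15, adjusted p = 5.3e-10).

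The *batf* row exceeded the *jdp2b* row in all 18 libraries, and by nearly the same amount in each. The difference was 2.10 ± 0.08 CPM in GF, 2.32 ± 0.49 in CONVD, 2.44 ± 0.63 in Exi, 2.20 ± 0.67 in Chrys, 2.35 ± 0.36 in GF mutants and 1.93 ± 0.24 in CONVD mutants (SD, n = 3). It ranged from 11 to 49 counts per library, while *jdp2b* counts came to between 60.5% and 90.8% of *batf* counts. In RefSeq's annotation of the GRCz12tu assembly, the spans of *batf* and *jdp2b* overlap. This assembly is newer than the GRCz10 build the counts were made on, and was used only for gene order and overlap of spans. Whether exons of the 2 genes overlap was not examined. The libraries do not mark strand, so strand could not assign reads from a stretch that both genes share. The count files do not show whether or which reads were counted in both rows.

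With the *jdp2b* counts taken out of the *batf* row, *batf* was no longer called. In the fit over all genes with *batf* counts less *jdp2b* counts, an alternative chosen after seeing the data, the log2 fold change in CONVD against GF was 0.10 (SE 0.25, 95% interval -0.40 to 0.61, edgeR adjusted p = 0.95). It was 0.25 in Exi (adjusted p = 0.84) and 0.04 in Chrys larvae (adjusted p = 0.98). None of the 7 comparisons in which the *batf* row was called kept its call. The subtraction took most counts from the row and left a nearly constant remainder. Its calls would thus be lost whether or not reads are shared, and the subtraction cannot tell these apart. The change of *batf* is given only as that of its row, and whether it is independent of *jdp2b* was not tested. The values of *jdp2b* are likewise those of its row, which could also hold reads of *batf*, and since the *batf* row was the larger in every library, the subtraction could be made in 1 direction only.

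**Figure D2:**
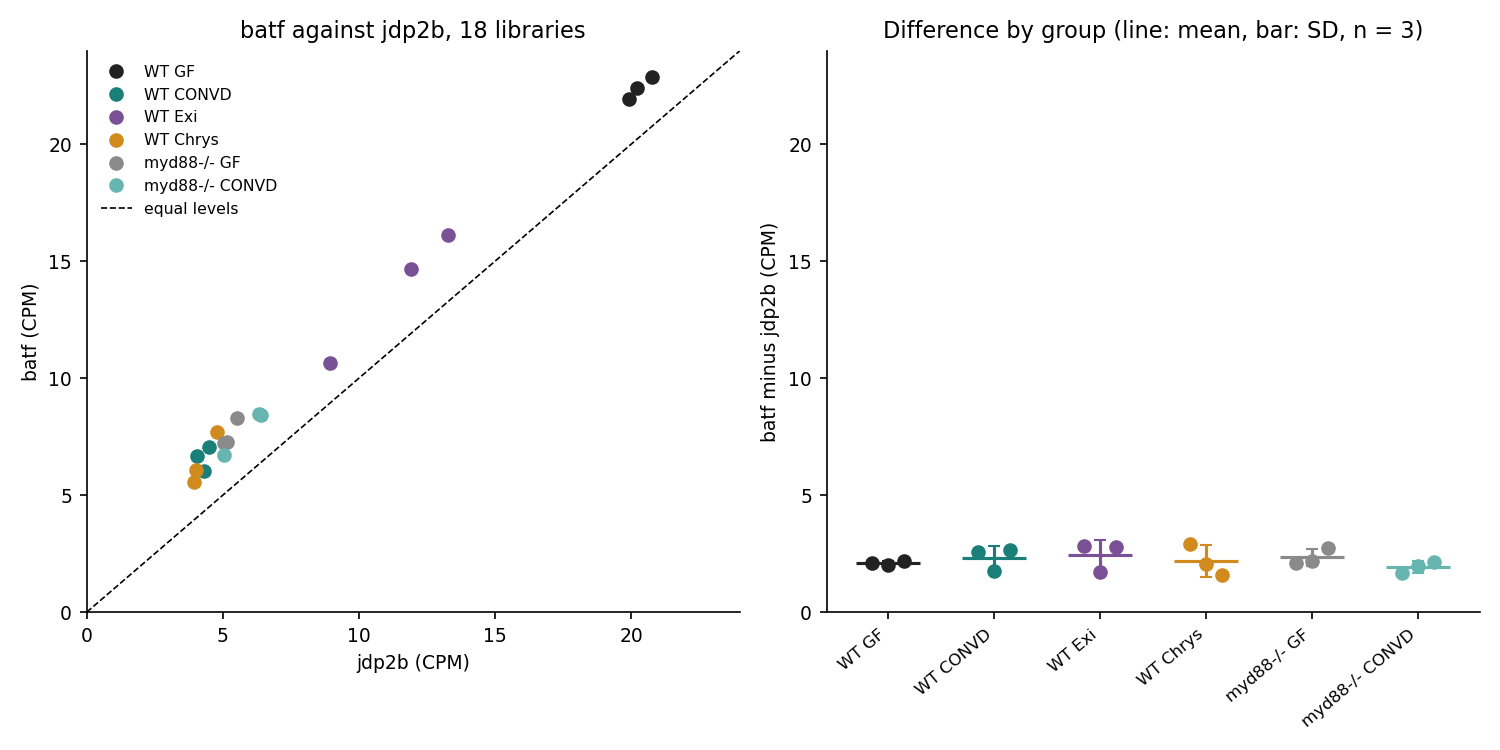
Left, level of the *batf* row against that of the *jdp2b* row, both in CPM, with 1 point per library coloured by group and a dashed line where both are equal. Right, *batf* less *jdp2b* in CPM by group on the same scale, with the mean as a line and the standard deviation as a bar (n = 3). The points run parallel to the line of equality, and the difference stays between 1.61 and 2.93 CPM while *jdp2b* goes from 3.95 to 20.8 CPM.

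The stress-induced factor *atf3* (ENSDARG00000007823) was lowered by each colonization. GF WT libraries held 25.8, 34.9 and 33.2 CPM of it. CONVD libraries held 14.1, 14.0 and 15.0 CPM, Exi libraries 18.5, 18.3 and 21.1 CPM, and Chrys libraries 14.3, 15.3 and 19.5 CPM. The 9 colonized libraries were all below the lowest GF library, and Exi and Chrys overlapped. The log2 fold change was -1.11 in CONVD (SE 0.11, edgeR adjusted p = 4.2e-08), -0.68 in Exi (SE 0.11, adjusted p = 7.0e-04) and -0.93 in Chrys larvae (SE 0.12, adjusted p = 8.0e-06). In *myd88*-/- larvae *atf3* was lower than in any WT library when GF, at 10.5, 10.7 and 12.2 CPM, and likewise when CONVD, at 9.49, 11.4 and 12.2 CPM.

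Among the Jun subunits, only *jund* (ENSDARG00000067850) was called upon colonization of WT larvae. Its GF libraries held 65.4, 64.3 and 56.2 CPM, and its CONVD libraries 43.5, 43.4 and 42.5 CPM. Exi libraries held 52.1, 51.6 and 48.6 CPM and Chrys libraries 39.6, 38.4 and 33.1 CPM. No colonized group overlapped GF or another colonized group, with Exi nearest to GF and Chrys farthest. The log2 fold change was -0.52 in CONVD (SE 0.08, edgeR adjusted p = 3.4e-05) and -0.74 in Chrys larvae (SE 0.08, adjusted p = 5.9e-07), and at -0.29 in Exi larvae it did not pass (adjusted p = 0.079). With all libraries thinned to the smallest total, the CONVD change was -0.39 and missed the threshold (edgeR adjusted p = 0.057).

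The zebrafish copies of mammalian Junb are *junba* (ENSDARG00000074378) and *junbb* (ENSDARG00000104773). Among CONVD WT libraries they varied most of the 8, with an SD of 20.5% and 21.9% of the mean. In Exi libraries, at 6.9% and 9.2%, they did not. For *junbb*, GF libraries held 42.1, 57.5 and 52.5 CPM, CONVD libraries 47.5, 31.5 and 35.3 CPM, Exi libraries 69.0, 62.7 and 75.4 CPM, and Chrys libraries 34.1, 50.1 and 36.0 CPM. All 3 Exi libraries were above all 3 GF libraries, while CONVD and Chrys overlapped GF. None of these differences from GF passed the test, with log2 fold changes of 0.46 in Exi (SE 0.16, edgeR adjusted p = 0.33), -0.43 in CONVD (SE 0.16, adjusted p = 0.33) and -0.30 in Chrys (SE 0.17, adjusted p = 0.57). With 1 library left out, the CONVD value of *junbb* ran from -0.59 to -0.29, and it was called only without CONVD replicate 1 (-0.59, edgeR adjusted p = 0.041). DESeq2 fitted to GF and Exi alone called the Exi value (0.45, adjusted p = 0.027). WT levels of *junba* were 13.9 to 24.8 CPM in GF, 13.1 to 19.6 in CONVD, 21.5 to 24.7 in Exi and 16.2 to 17.3 in Chrys libraries, and all 3 colonized groups overlapped GF.

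The founding member of the family, *jun* (ENSDARG00000043531), kept between 49.0 and 69.0 CPM in all 18 libraries. Its group means came to between 86.0% and 100.4% of the GF WT mean, and its log2 fold changes against GF were -0.15 in CONVD (95% interval -0.30 to 0.00), -0.05 in Exi (-0.20 to 0.11) and -0.21 in Chrys larvae (-0.37 to -0.05), none of them called. The other Jdp2 copy, *jdp2a* (ENSDARG00000040137), was scarce, with 61 to 200 counts summed over the 3 libraries of a group. It stood at 2.52 to 2.64 CPM in GF, 2.92 to 3.23 in CONVD, 2.30 to 3.06 in Exi and 1.88 to 3.24 in Chrys libraries. Its log2 fold change upon conventionalization was 0.25 (SE 0.21, 95% interval -0.18 to 0.69, edgeR adjusted p = 0.76). This interval does not reach the fall of the *jdp2b* row.

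Read against all genes, 4 of the 8 members were called lower in CONVD against GF where 1.04% of the genes tested were, 3 with Exi where 0.484% were, and 4 with Chrys where 1.08% were. No member was called higher in any of these. The median log2 fold change over the 8 members was -0.47 in CONVD, -0.17 in Exi and -0.52 in Chrys larvae, and over all genes tested it was -0.00, 0.00 and -0.00. With *jdp2b* counts subtracted from the *batf* row, the members called numbered 3, 2 and 3. With 3 libraries against 3, an exact two-sided permutation test of a single gene cannot give a p below 0.1, which is what it gave for each member whose groups did not overlap. All values come from whole larvae, in which fewer cells of a type and less RNA per cell cannot be told apart.

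**Figure D3:**
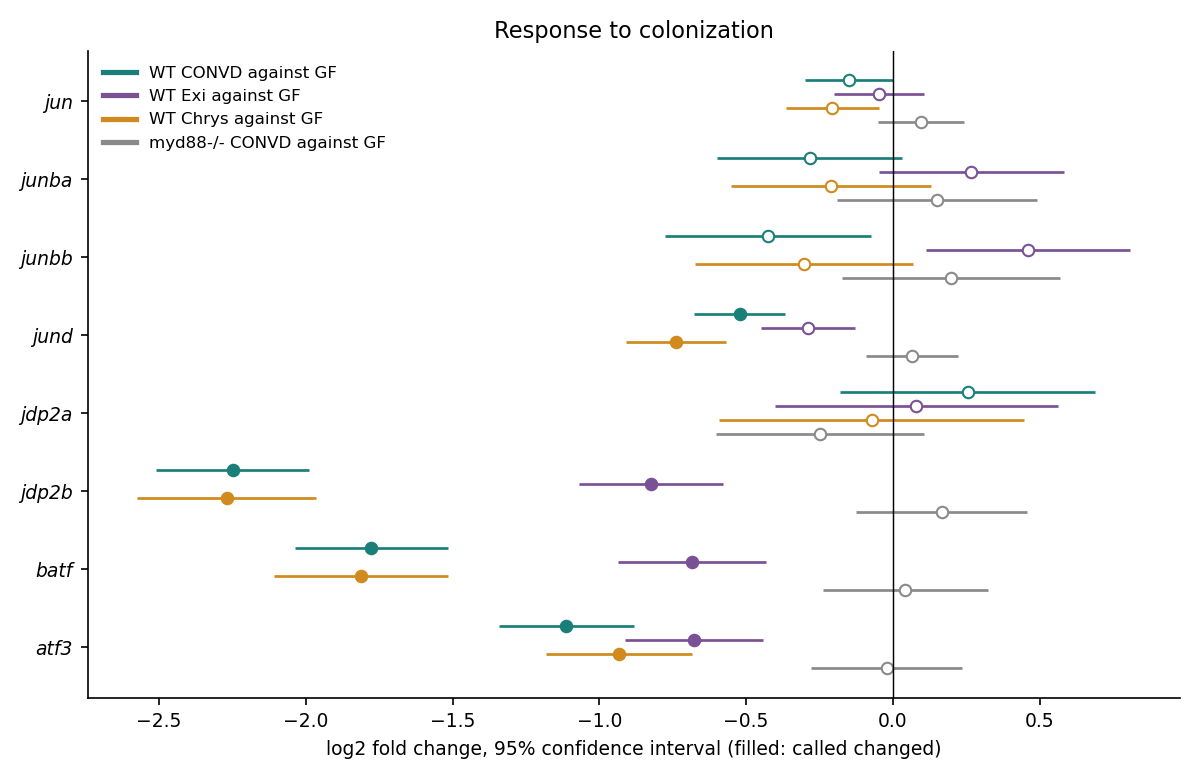
Log2 fold change against the GF larvae of the same genotype for each transcript, with the 95% confidence interval as a line, for CONVD, Exi and Chrys WT larvae and CONVD *myd88*-/- larvae. Filled points were called changed. The WT intervals of *jdp2b*, *batf*, *atf3* and *jund* lie wholly below 0, though *jund* was not called in Exi larvae. Every interval of the mutants includes 0.

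In *myd88*-/- larvae, no change of the 8 transcripts upon conventionalization passed the test. Libraries of *jun* (58.3 to 62.7 CPM in GF, 63.2 to 66.7 in CONVD) did not overlap, nor did those of *junbb* (24.0 to 24.3 and 26.2 to 29.3). For both, the exact two-sided permutation test gave p = 0.1, the lowest it can give. Log2 fold changes ran from -0.25 for *jdp2a* to 0.20 for *junbb*, with 0.17 for *jdp2b* (95% interval -0.12 to 0.46), -0.02 for *atf3* (-0.28 to 0.24) and 0.07 for *jund* (-0.09 to 0.22). None was called by edgeR, none had an unadjusted p below 0.05, and DESeq2 also called 0. Over all genes, 0.077% were called changed in this comparison.

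The difference between the mutant and the WT response was tested directly as the interaction of colonization and genotype. It passed for 4 members, all with a higher value in mutants, where 0.646% of all genes did so. For *jdp2b* the mutant response exceeded the WT response by 2.42 on the log2 scale (SE 0.19, edgeR adjusted p = 3.9e-09), again the lowest p of all genes tested. The values were 1.09 for *atf3* (SE 0.17, adjusted p = 2.5e-04) and 0.59 for *jund* (SE 0.11, adjusted p = 0.0025), and the *batf* row gave 1.82 (SE 0.19, adjusted p = 2.2e-07) but -0.39 without *jdp2b* counts (adjusted p = 0.89). With all libraries thinned to the smallest total, the *jund* difference was 0.36 and did not pass (edgeR adjusted p = 0.59). The other members gave 0.62 for *junbb* (adjusted p = 0.51), 0.43 for *junba*, 0.24 for *jun* and -0.50 for *jdp2a*, none of them called.

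The genotypes differed before any colonization. In GF larvae, 6 members were lower and 1 was higher in mutants than in WT, in a comparison in which 15.1% of all genes were called lower and 16.3% higher. The Junb copies, which showed no called response to colonization, were among those lower. Libraries of *junba* held 10.3, 9.25 and 9.41 CPM in GF mutants against 13.9, 19.2 and 24.8 CPM in GF WT larvae, and those of *junbb* 24.3, 24.3 and 24.0 CPM against 42.1, 57.5 and 52.5 CPM. Neither gene overlapped between genotypes. Log2 differences were -0.99 for *junba* (SE 0.16, edgeR adjusted p = 3.8e-05) and -1.06 for *junbb* (SE 0.17, adjusted p = 2.0e-04).

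The largest genotype differences in GF larvae were those of *jdp2b* (-1.95, SE 0.13, edgeR adjusted p = 2.8e-13), the *batf* row (-1.56, SE 0.13) and *atf3* (-1.49, SE 0.12, adjusted p = 1.9e-11). For *jund* the difference was -0.52 (SE 0.08, adjusted p = 3.0e-06). The *batf* row without *jdp2b* counts gave 0.15 (adjusted p = 0.65). The member that was higher was *jdp2a*, at 4.29, 5.37 and 3.66 CPM in GF mutants against 2.64, 2.52 and 2.59 CPM in GF WT larvae, a log2 difference of 0.78 (SE 0.21, edgeR adjusted p = 0.0025). The rows of the Jdp2 copies thus differed from WT in opposite directions in GF mutants, and that of *jdp2b* could also hold reads of *batf*. For *jun* the difference was -0.09 (SE 0.07, adjusted p = 0.36).

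In CONVD larvae, 3 members were lower and 1 was higher in mutants, with 14.5% and 15.2% of all genes called lower and higher. Those lower were *junba* (-0.55, SE 0.15, edgeR adjusted p = 0.0055), *junbb* (-0.43, SE 0.16, adjusted p = 0.047) and *atf3* (-0.40, SE 0.12, adjusted p = 0.0077), and *jdp2b* was higher (0.46, SE 0.14, adjusted p = 0.0093). All 3 CONVD mutant libraries of *jdp2b* lay above all 3 CONVD WT libraries. These differences were less firm than those in GF larvae. With 1 library left out the number of members called fell to as few as 2 of 8. The *junbb* call was lost without CONVD WT replicate 1 or 3 or any 1 mutant library (-0.27 to -0.48), that of *atf3* without CONVD WT replicate 3 (-0.36) or mutant replicate 1 (-0.29), and that of *jdp2b* without mutant replicate 2 (0.40).

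**Figure D4:**
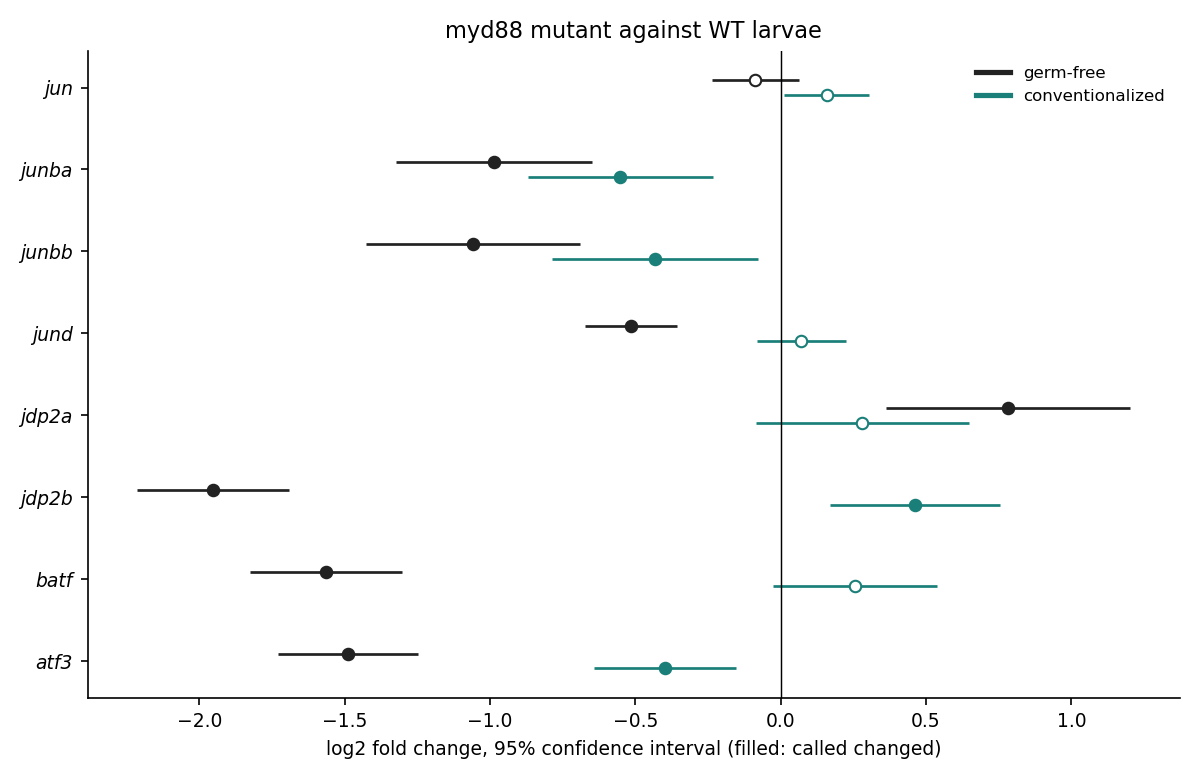
Log2 difference between *myd88*-/- and WT larvae for each transcript in GF and in CONVD larvae, with 95% confidence intervals. Filled points were called changed. In GF larvae *jdp2b*, *batf* and *atf3* lie below -1.4 and *jdp2a* above 0, and in CONVD larvae all values lie between -0.55 and 0.46.

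The bacterial treatments were also compared with each other. CONVD larvae had lower *jdp2b* than Exi larvae (log2 fold change -1.42, SE 0.14, edgeR adjusted p = 3.8e-07), the lowest p of all genes in that comparison, and 0.24% of all genes were called lower. The *batf* row (-1.09, SE 0.13, adjusted p = 1.8e-05) and *junbb* (-0.89, SE 0.16, adjusted p = 0.035) were also lower in CONVD, but *batf* without *jdp2b* counts was not called (-0.15, adjusted p = 0.96). The *junbb* call was lost when any 1 of 4 of the 6 libraries was left out (CONVD replicates 2 and 3 and Exi replicates 1 and 3), with values of -0.75 to -0.88. Without CONVD replicate 1, *junba* was called as well (-0.69, edgeR adjusted p = 0.020).

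Between Exi and Chrys larvae, 3 members were higher with Exi, where 0.582% of all genes were. The differences were 1.44 for *jdp2b* (SE 0.16, edgeR adjusted p = 3.2e-06), 1.13 for the *batf* row (SE 0.15, adjusted p = 8.2e-05; 0.21 without *jdp2b* counts, adjusted p = 0.86) and 0.45 for *jund* (SE 0.08, adjusted p = 0.0043). The *junbb* difference of 0.76 lay just outside the threshold in edgeR (adjusted p = 0.053), was called by DESeq2 on all libraries (0.77, adjusted p = 4.0e-05), and was 0.98 and called by edgeR without Chrys replicate 2 (adjusted p = 0.0062). Chrys replicates 1 and 3 were the shallowest libraries of the study, with 6404744 counts in the smaller, and correlated least with their own group. Without both, which left 1 Chrys library and so no spread within that group, the *jund* difference was 0.39, and no call is given. Without replicate 3 alone the *jund* difference was 0.37, under the fold threshold. In that fit *jdp2b* and *batf* kept their calls, as did all 4 members called in Chrys against GF.

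Between CONVD and Chrys larvae no member was called by edgeR or DESeq2, where edgeR called 0.116% of all genes changed. Before adjustment, 1 member, *jund*, had an edgeR p below 0.05, and it ranked 471 of 23367 genes by p. The log2 difference was 0.02 for *jdp2b* (95% interval -0.34 to 0.38), 0.04 for *batf* (-0.29 to 0.36), -0.18 for *atf3* (-0.43 to 0.08) and 0.22 for *jund* (0.05 to 0.38). These intervals leave room for differences of about the size of the smaller changes given here.

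The partners with which these factors dimerize differed among themselves in their response. All 6 tested rows of the Fos family, the main partners of Jun, were called lower in CONVD and in Chrys larvae, and 3 in Exi larvae. Over all genes, 1.04% were called lower in CONVD, 1.08% in Chrys and 0.484% in Exi larvae. In CONVD larvae *fosl1a* fell by 3.41, *fosb* by 1.70, *fosl2* by 0.88 and *fosaa* by 0.70 on the log2 scale. The rows named *fosab* fell by 1.23 and 1.02 and may share reads. In Exi larvae the *fosab* rows had values of 0.42 and 0.49 and were not called, and *fosl1a*, *fosb* and *fosl2* were. The median of the 6 rows was -1.13 in CONVD, -0.44 in Exi, -0.91 in Chrys and -0.01 in CONVD mutants, each against the GF larvae of the same genotype.

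Among all genes tested, 1.04% were called lower and 0.586% higher in CONVD larvae. Of 29 tested genes for other bZIP factors, 4 were called lower in CONVD larvae and none higher, with a median of -0.04. They were *cebpb* (-1.73), a factor of the C/EBP family that acts in macrophages and liver, its relative *cebpa* (-0.44), *crema* (-0.85), a cyclic AMP response factor, and *creb5a* (-0.74). Of 27 genes of the mitogen-activated protein kinase cascade, which phosphorylates Jun, only *map3k12*, an upstream activator of the Jun kinases, was called, and it was higher (0.44, SE 0.10). The median of this list was 0.04. No kinase of the list was called in Exi larvae, where 0.757% of all genes were called changed. In Chrys larvae *map3k12* was the one called (0.44), where 0.424% of all genes were called higher.

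Of 19 tested genes known from mammals as AP1 targets, 4 were called lower in CONVD and the same number in Chrys larvae. In CONVD larvae these included the prostaglandin synthases *ptgs2b* (-1.37, SE 0.13) and *ptgs2a* (-0.87) and the growth factor *hbegfa* (-0.90). The median of the list was -0.20. Over all genes, 1.04% were called lower in CONVD and 1.08% in Chrys larvae. In Exi larvae 1 of the 19 was called lower, where 0.484% of all genes were. There *ptgs2a*, *ptgs2b* and *hbegfa* had values of 0.17, -0.14 and -0.28 and were not called. None of the Fos, other bZIP, kinase or target genes was called in CONVD mutants, where 0.077% of all genes were called changed. The interaction was called for 4 of 6 Fos rows, 2 of 29 other bZIP genes, 0 of 27 kinases and 4 of 19 targets. All of these had the higher value in mutants, where 0.646% of all genes did so. Of the interferon regulatory factors that pair with Batf in mammals, *irf4a* and *irf8* were tested, and neither was called in CONVD larvae (-0.27 and 0.15).

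Across the 18 libraries, likeness was measured as the Pearson correlation of log2 CPM with each of 20000 genes of mean log2 CPM of at least 1. It is a description, since libraries share their group and genotype. After *batf* (0.99), the genes most like *jdp2b* were *sik1*, a salt-inducible kinase (0.96), and *ERRFI1 (1 of 2)*, a feedback inhibitor of the epidermal growth factor receptor (0.96). Those most like *atf3* were *cebpb* (0.95), *myd88* itself (0.93) and the growth factor *epgn* (0.93). For *jund* they were the protease gene *adamts1* (0.91), *batf* (0.90) and *jdp2b* (0.90).

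The Junb copies were like each other (0.93) and like the immediate early gene *egr1*, at 0.93 for *junba* and 0.96 for *junbb*. The gene most like *junbb* was *fosab* (0.96). For *jun* the highest values were lower, with *prkg1b* at 0.82, *zfp36l2* at 0.80 and *si:dkey-33k1.2* at 0.80. For *jdp2a* they were *stxbp3* (0.90), *plp2* (0.89) and *fstb* (0.88). Among the 28 pairs of members the correlation ran from -0.72 to 0.99 with a median of 0.43. After group means were taken out it ran from -0.45 to 0.94 with a median of 0.07. The pairs with the highest values within groups were *jdp2b* with *batf* (0.94), *jun* with *junbb* (0.73) and *jun* with *junba* (0.66).

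In the gene order of RefSeq's GRCz12tu annotation, *fosab* is the protein-coding neighbour of *batf* and *jdp2b*, and *fosaa* is the neighbour of *jdp2a*. Beside the rows of *batf* and *jdp2b*, whose falls cannot be told apart, both *fosab* rows fell upon conventionalization. The next genes outward, *tmed10* (0.07), *si:ch211-153j24.3* (-0.10), *adcy3b* (0.15) and *wdr26b* (0.04), were not called. At the other locus *fosaa* fell by 0.70 while *jdp2a* was not called, and neither was *galnt16* (0.09), whose span overlaps *jdp2a*. Near *jund*, *nmrk2*, the third protein-coding gene to one side, fell by 0.57 in CONVD larvae (edgeR adjusted p = 1.1e-04), while the genes between them were not called. The Batf relative *batf3* lies next to *atf3* and was too low to be tested, at means of 0.22 CPM in GF and 0.26 CPM in CONVD larvae.

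Library totals ranged from 6404744 to 23600976 counts with a median of 12012273. The first principal component, with 55.6% of the variance, parted all mutant from all WT libraries. Transcripts of *myd88* were present in the mutants, at 3.09 to 4.60 CPM against 9.12 to 12.4 CPM in GF and 4.32 to 5.80 CPM in CONVD WT larvae, so that their level alone does not check the genotype labels. All 14 matched markers of gut, liver, pancreas, muscle, lens, skin, neurons and photoreceptors were detected. None of them was called in CONVD against GF, where 1.63% of all genes were called changed. In mutants against WT, 3 were called lower and 6 higher in GF larvae, where 15.1% and 16.3% of all genes were. In CONVD larvae 1 was called lower and 3 higher in mutants, where 14.5% and 15.2% of all genes were. Since Batf and Atf3 are known from leukocytes, leukocyte markers were summed. The 4 pan-leukocyte markers summed to 33.6 to 34.7 CPM in GF, 38.8 to 41.3 in CONVD, 32.7 to 34.8 in Exi and 32.7 to 33.4 in Chrys libraries, and to 28.3 to 32.9 CPM in mutants. None of the 4 was called in CONVD against GF WT larvae, where 1.63% of all genes were called changed. In mutants against WT, 2 were called lower in CONVD larvae, where 14.5% of all genes were, and 0 in GF larvae, where 15.1% were. The 9 macrophage markers summed to 59.2 to 62.2 CPM in GF, 65.8 to 77.4 in CONVD, 65.0 to 69.8 in Exi and 56.3 to 59.8 in Chrys libraries, and to 55.0 to 59.8 CPM in mutants, with *csf1rb* the most abundant of them (28.9 to 39.6 CPM). Of the 7 tested, *mpeg1.2* alone was called in each colonized WT group, and it was higher (2.09 in CONVD, 2.29 in Exi and 1.14 in Chrys on the log2 scale). Of all genes, 0.586% were called higher in CONVD, 0.274% in Exi and 0.424% in Chrys larvae. The 6 lymphoid markers summed to less in colonized WT libraries (6.90 to 10.2 CPM) than in any GF library (median 12.9 and highest 14.0 CPM). They summed to 10.6 to 13.3 CPM in mutants. The most abundant of them was *rag1* (3.29 to 9.64 CPM), and *cd8a* stood at 0 or 1 counts. Of 5 tested, 0 were called in CONVD and in Exi, and 1 in Chrys (*rag1*, -0.83, edgeR adjusted p = 0.028), where 1.08% of all genes were called lower. The lymphoid markers did not all go the same way. In CONVD the log2 fold changes were -0.60 for *rag1*, -0.51 for *lck*, -0.63 for *zap70*, 0.01 for *rag2* and 0.23 for *il7r*. The 6 neutrophil markers summed to 35.9 to 42.3 CPM in mutants and 45.0 to 71.8 CPM in WT libraries. In mutants against WT, 3 of the 6 were called lower in GF and 3 in CONVD larvae. Over all genes, 15.1% and 14.5% were called lower there. The part of leukocytes in the changes of the 8 transcripts was not tested.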

How the data were processed

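Total RNA of pooled whole larvae was made into libraries with the unstranded TruSeq RNA kit v2 and sequenced as single reads of 50 nucleotides. The authors aligned reads to GRCz10 and counted them per gene with GeneTiles; Bowtie2, SAMtools and DESeq are named in the submitters' processing notes without versions. The deposited values are raw read counts per gene, 1 file a library. In 9 files 1 entry without a gene name is not whole, so these deposited columns are listed under the unit of expected counts; the entry was left out and all gene values are whole. How reads in overlapping genes were counted is not given in the sources used here.

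Counts of all 18 libraries were fitted with 1 coefficient a group in edgeR 4.0.16 (R 4.3.3) by the robust quasi-likelihood test, after TMM scaling and filterByExpr (minimum count 10, total 15), with Benjamini-Hochberg adjustment over 23367 genes. Called genes had adjusted p below 0.05 and fold change of at least 1.3. SE is the log2 fold change over the root of F. Correlations used log2 CPM with a prior count of 2 and genes of mean log2 CPM of at least 1. Scripts were tested on simulated data. Alternatives used RLE factors, DESeq2 1.42.0, fits of the compared groups alone, no filter, no fold threshold, thinning, a replicate block and each library left out. Thinning was a single random draw. Replicate libraries differed by more than sampling noise in all 18 pairs (chi-square per degree of freedom 1.64 to 5.46). Named genes were the 8 members, up to 4 called genes of each list with the lowest p in CONVD against GF, and the 3 genes most like each member. The members and lists were chosen with earlier results of these data known. A gene of the AP1 target list is not reported here by name. Figures used matplotlib 3.10.9.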

Additional observations from a re-analysis of the deposited data

Results flagged for a closer look

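For 4 members the response to conventionalization differed between genotypes by the test of the interaction (edgeR, adjusted over all genes). Among all genes tested, 0.646% were called with a higher value in mutants. On the log2 scale the mutant response exceeded the WT response by 2.42 for *jdp2b*, 1.82 for the *batf* row, 1.09 for *atf3* and 0.59 for *jund*. In each case the WT level fell and the mutant level, already lower when germ-free, was not called changed. The *batf* row shares its course with that of *jdp2b* and may hold the same reads, so its value cannot be taken as independent. The part of the lower starting level and of the different parents of the mutants was not tested.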

How the results depend on the processing

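Each member's value in 10 comparisons was recomputed under the alternatives, which gave 1272 values. Of these, 1229 kept their call or lack of one, 34 lost a call and 9 gained one, and 28 values called in neither fit changed sign. Only the *batf* row turned direction after being called. With *jdp2b* counts taken out its log2 fold change was 0.10 in CONVD, 0.25 in Exi and 0.043 in Chrys against GF, -0.39 for the interaction and 0.15 for GF mutants against WT, the alternative itself removing most of its reads. Members called in CONVD mutants against WT numbered 4, and 2 with libraries thinned to the smallest total, where *jdp2b*, *junbb* and *atf3* lost and *batf* gained a call. With each library left out, the numbers called ran from 4 to 5 in CONVD, 3 to 3 in Exi and 4 to 4 in Chrys against GF, 0 to 0 in CONVD against GF mutants, 4 to 4 for the interaction, 7 to 7 and 2 to 4 for mutants against WT in GF and CONVD, 2 to 4 for CONVD against Exi, 0 to 0 for CONVD against Chrys and 2 to 4 for Exi against Chrys.

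In no comparison did all 3 same-numbered pairs of libraries deviate together with a correlation over 0.1. This limit cannot exclude a weaker pairing by replicate number. Correlations between WT groups were all positive, at 0.07 to 0.09 for CONVD with GF and 0.05 to 0.18 for Exi with GF. Between genotypes they ran from -0.09 to -0.01 in GF and from -0.03 to 0.01 in CONVD larvae. A replicate block in the fit lost 2 calls and gained 1 over 80 values, the *junbb* calls in CONVD mutants against WT (-0.43, adjusted p = 0.073) and CONVD against Exi (-0.89, adjusted p = 0.080) and the *atf3* call in CONVD against Exi (-0.43, edgeR adjusted p = 0.045). Counts over all genes moved by more than 1.5 times in some fits. Thinning gave 240 calls for 380 in CONVD, 108 for 177 in Exi and 196 for 352 in Chrys against GF, 7 for 18 in CONVD against GF mutants, 87 for 190 in the interaction, 29 for 60 in CONVD against Exi, 17 for 27 in CONVD against Chrys and 106 for 180 in Exi against Chrys. The compared groups alone gave 143 (edgeR) and 100 (DESeq2) for 18 in mutants, 200 and 220 for 352 in Chrys, 39 for 60 in CONVD against Exi (edgeR), 7 for 27 in CONVD against Chrys (edgeR) and 72 for 180 in Exi against Chrys (edgeR), where DESeq2 on all libraries gave 275. Counts of *jdp2a* were as low as 18 in a library.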
